A study of Pleurotus ostreatus with 4 samples.

Results

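The 50 sequences described here differed by less than a set limit between mycelium and primordium of the oyster mushroom Pleurotus ostreatus. They were higher than in primordium in both the young and the mature fruit body. They are 50 of the 51131 assembled sequences in the deposited table. They were chosen from the measured values themselves, on the scale log2(FPKM + 1), where FPKM is the number of sequenced fragments scaled to the length of the sequence and to the library's total. A sequence was taken when it had at least 5 FPKM in young fruit body, when young and mature fruit body each exceeded primordium by at least 1 on that scale, and when primordium and mycelium differed by less than 1. The differences that chose the sequences are given below as descriptions and carry no test.

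The libraries came from wild-type strain P739, with 1 library of total RNA for each of 4 stages: the vegetative mycelium, the primordium, the young mushroom and the mature mushroom. The labels name the tissue by its stage and do not say how many mushrooms went into a library or which parts of them. No stage had a replicate, so no difference between stages could be set against the spread between mushrooms, and no p-value is given. All intervals below are 95% counting intervals, exact for the ratio of the fragments behind a pair of values, and they hold counting error only. Each library is bulk tissue, so more cells that carry a transcript and more transcript per cell cannot be told apart.

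In mushroom-forming fungi, vegetative hyphae grow as a mycelium until a signal such as light, cool air or fresh air leads hyphae to aggregate. The primordium is the compact aggregate in which the cap, the stipe and the gill tissue are laid down. The young fruit body is the stage at which these tissues expand, and the gills of the mature mushroom carry basidia, the cells in which meiosis takes place and on which spores form. This background names no function for any sequence here, because the table pairs its identifiers with no gene name. A search of all 51131 identifiers in RefSeq's list of 11849 genes for strain PC9 gave 0 matches, so no gene, position, promoter or protein is given, and sequences are called by the identifiers of the table. An identifier with CL names a contig within a cluster of related contigs, and one with Unigene names a single sequence. Where several values of 1 sequence are listed without stage names, they follow stage order, from mycelium through primordium and young to mature mushroom.

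The choice narrowed in steps. At least 5 FPKM in young fruit body was reached by 6492 sequences, and 193 of these exceeded primordium by at least 1 on the log2(FPKM + 1) scale. The 193 were 2.83% of the 6820 sequences with at least 5 FPKM in either of the libraries, and all 50 are among them by the rule. In 80 of the 193, primordium already exceeded mycelium by at least 1, and in 47 it lay at least 1 below mycelium. The other 66 differed by less than 1 between mycelium and primordium. Of those 66, 50 were still at least 1 above primordium in mature fruit body and 16 were not. The 50 thus made up 25.9% of the sequences higher in young fruit body than in primordium. They were 75.8% of the 66 whose mycelium and primordium differed by less than 1. Of the 80, 60 were also still at least 1 above primordium in mature fruit body, and of the 47, 41 were. Keeping the difference at maturity was thus not particular to the 50.

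Across the 50 sequences the median level in stage order was 2.71, 2.82, 9.48 and 15.0 FPKM. Levels spanned a wide range, from 5.05 to 505 FPKM in young fruit body and from 3.66 to 1080.2 FPKM in mature fruit body. Low abundance was common: 25 sequences had less than 10 FPKM in young fruit body, 15 had from 10 up to 50, and 10 had 50 or more. The median of 9.48 FPKM compares with 19.4 FPKM over all 6492 sequences of at least 5 FPKM in young fruit body. Together the 50 sequences took 0.119%, 0.108%, 0.318% and 0.590% of the recovered fragments of the libraries in stage order. Unigene2463_All and Unigene6300_All alone held 48.1% of the group's primordium fragments and 42.4% of its young fruit body fragments.

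The ratio of young fruit body to primordium was between 2 and 4 for 35 sequences, between 4 and 10 for 11, and above 10 for 4, with a median of 3.003. The counting interval of this ratio lay above 1 for all 50, above 1.5 for 47 and above 2 for 35. On the log2(FPKM + 1) scale the median difference was 1.30, against 0.04 over the 6492 sequences of at least 5 FPKM in young fruit body. For mature fruit body against primordium the median ratio was 4.32. In that comparison 597 sequences were higher, 8.39% of the 7119 that reached 5 FPKM in either library, and 47 of the 50 reached 5 FPKM in mature fruit body. These differences were fixed by the choice of the sequences.

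**Figure D1:**
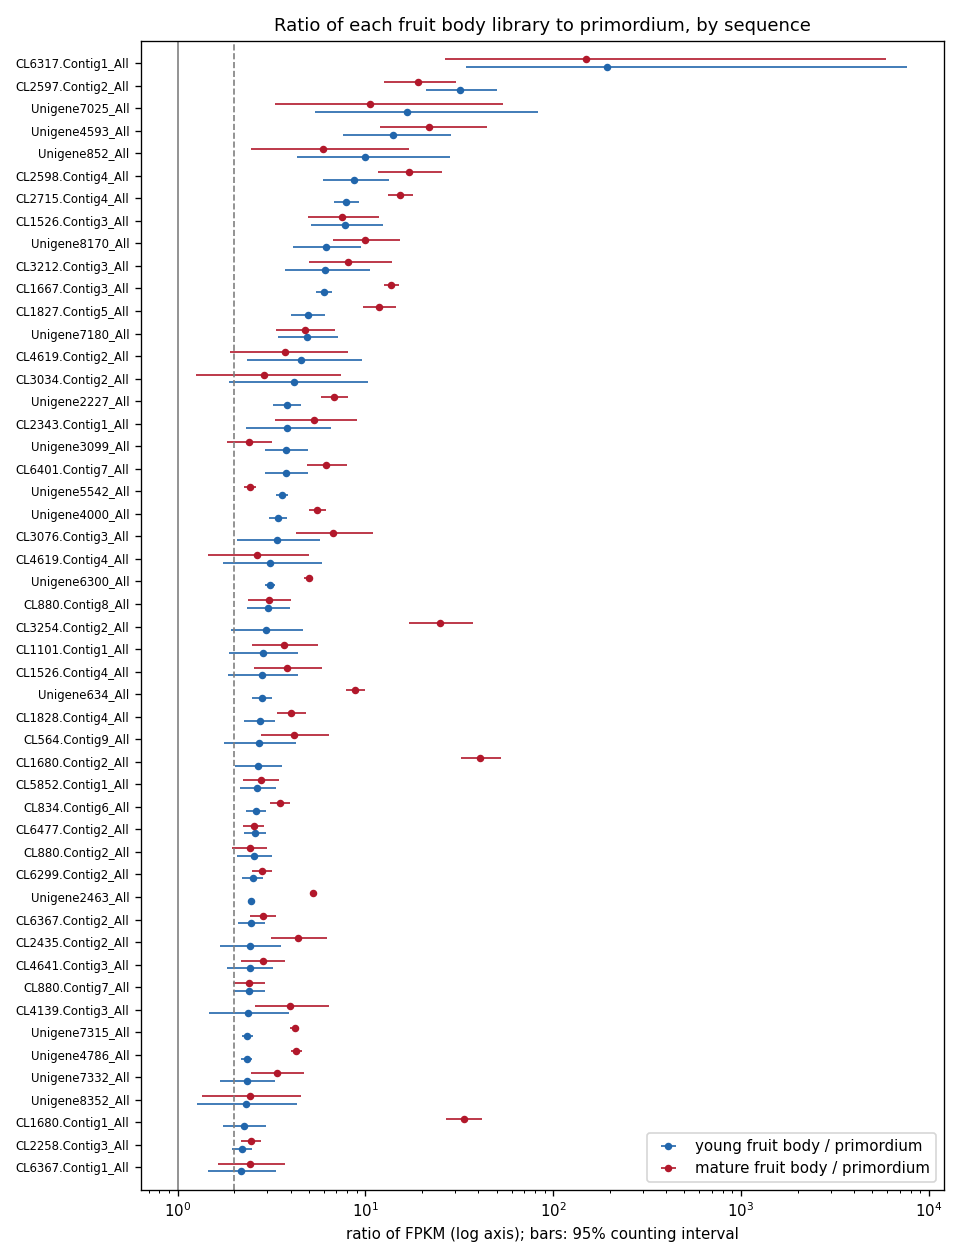
Ratio of FPKM in young fruit body (blue) and in mature fruit body (red) to primordium for each of the 50 sequences, on a log axis, with 95% counting intervals as bars and lines at 1 (solid) and 2 (dashed). Most young fruit body ratios lie between 2 and 4, and the red points of CL1680.Contig1_All, CL1680.Contig2_All and CL3254.Contig2_All stand far to the right of their blue points.

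The sequences with the largest differences from primordium on the log2(FPKM + 1) scale were close to 0 before the young fruit body. CL6317.Contig1_All (289 nt) had 0, 0.230, 44.5 and 34.4 FPKM. Its primordium value rests on 1 fragment, so its ratio of 193 has an interval of 34.3 to 7680. With 3 fragments, or 0.668 FPKM, in place of its count of 0 in mycelium, the ratio of young fruit body to mycelium would be 66.6. The counting interval of this ratio reaches lower, to 53.7, so 66.6 is not a lower limit. Its mature level was 0.773 of the young level (0.623 to 0.959). CL2597.Contig2_All (952 nt) had 0.541, 1.61, 51.0 and 30.6 FPKM, from 8, 23, 748 and 457 fragments. Its ratio of young fruit body to primordium was 31.8 (21.0 to 50.4), and its mature level was 0.600 of the young level (0.533 to 0.675). Both therefore stood highest in young fruit body, by more than counting error.

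The next 3 by this difference, among the sequences that differed by less than 1 between young and mature fruit body, had lower levels in young fruit body. Unigene4593_All (1312 nt) had 0.736, 0.557, 7.82 and 12.1 FPKM, a ratio of young fruit body to primordium of 14.0 (7.63 to 28.7). CL2715.Contig4_All (4262 nt) had 1.31, 2.88, 22.9 and 44.2 FPKM, with 1500 fragments in young fruit body and a ratio to primordium of 7.92 (6.80 to 9.28). CL1526.Contig3_All (1073 nt) had 0.360, 1.55, 12.1 and 11.6 FPKM, and its ratio was 7.82 (5.14 to 12.4). At maturity CL2715.Contig4_All stood at 1.93 times its young level (1.82 to 2.06), whereas CL1526.Contig3_All stood at 0.957 times (0.782 to 1.17).

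The step from young to mature fruit body was not set by the rule, although both of its libraries were used in choosing. On the log2(FPKM + 1) scale, 7 of the 50 sequences were at least 1 higher in mature fruit body, 0 were at least 1 lower, and 43 lay between. Over the 7055 sequences with sufficient FPKM in this step, 5.22% were higher and 2.04% were lower. The shares of 7 and 0 in 50 are not comparable with these percentages as findings. A sequence that fell back to within 1 of primordium in mature fruit body could not enter the group. The median difference of the 50 was 0.40, against -0.05 over the 6492 sequences. The same exclusion pushes up this median and the count of sequences highest at maturity, so neither is a finding. In 36 sequences the mature level was the highest of the 4 libraries, and in 14 it was the young level.

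**Figure D2:**
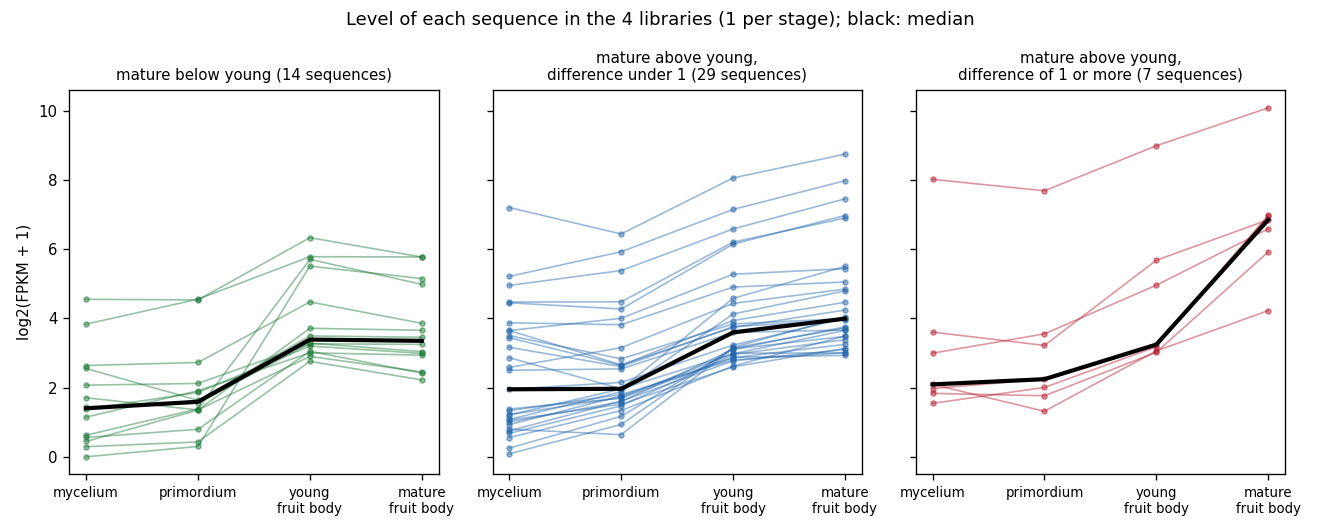
Level of each of the 50 sequences as log2(FPKM + 1) in the 4 libraries, 1 per stage, in 3 panels by the step from young to mature fruit body, with the median of each panel in black. The 14 sequences on the left are lower in mature than in young fruit body, the 29 in the middle are up to 1 higher, and the 7 on the right are at least 1 higher, with a median of 8.46 FPKM in the young and of 114 FPKM in the mature mushroom.

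Among the 43 sequences that stayed within 1 of the young level, the mature value was above the young value in 29 and below it in 14. The values differed by more than counting error in 28 of them: the interval of the ratio lay above 1 in 23 and below 1 in 5, and it held 1 in 15. No such count was made over all sequences. The rule kept out sequences that fell back to within 1 of primordium, so the excess of rises over falls is not a finding. The 43 had medians of 1.69, 2.68, 10.2 and 12.5 FPKM. The most abundant of them in young fruit body was Unigene6300_All (1147 nt), with 146, 85.5, 265 and 427 FPKM. Unigene7315_All (1540 nt) had 36.0, 59.7, 140.4 and 250.2 FPKM, so it was higher in each library than in the one before. Unigene4786_All (1834 nt) had the same order, with 29.9, 40.6, 94.7 and 174 FPKM. Their mature levels were 1.61 (1.55 to 1.67), 1.78 (1.71 to 1.86) and 1.83 (1.75 to 1.92) times the young levels, short of the limit.

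A pair of abundant sequences, Unigene4000_All and Unigene5542_All, had nearly the same levels in mycelium and primordium and differed at maturity. Unigene4000_All (1308 nt) had 21.2 FPKM at each of these stages, then 72.5 in the young and 118 in the mature mushroom. Unigene5542_All (2936 nt) had 22.4, 22.1, 79.4 and 53.6 FPKM. Their ratios to primordium in young fruit body were 3.42 (3.06 to 3.82) and 3.59 (3.35 to 3.86), with intervals that overlap. At maturity the first stood at 1.63 times its young level (1.52 to 1.74) and the second at 0.675 times (0.641 to 0.711). For both, the interval of primordium over mycelium held 1, at 0.875 to 1.15 and 0.903 to 1.08.

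The 7 sequences that were higher again in mature fruit body had medians of 3.26, 3.73, 8.46 and 114 FPKM. CL1680.Contig1_All (1497 nt) had 2.92, 3.73, 8.46 and 124 FPKM, and CL1680.Contig2_All (1547 nt), a contig of the same cluster, had 1.91, 3.01, 8.06 and 123 FPKM. Their ratios of mature to young fruit body were 14.7 (12.7 to 17.1) and 15.3 (13.2 to 17.7). CL3254.Contig2_All (805 nt) had 2.56, 2.39, 7.10 and 59.5 FPKM, a last ratio of 8.38 (6.71 to 10.6). For these 3 sequences the difference in young fruit body, between 2.27-fold and 2.97-fold, was small beside the one that followed.

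The other 4 of these sequences had last ratios between 2.14 and 3.15. Unigene2463_All (2032 nt), the most abundant of the 50, had 257, 204, 505 and 1080.2 FPKM. Its ratios were 2.47 (2.40 to 2.54) from primordium to young and 2.14 (2.10 to 2.18) from young to mature fruit body. Unigene634_All (2109 nt) had 6.96, 10.7, 30.05 and 94.8 FPKM, with ratios of 2.80 (2.48 to 3.18) and 3.15 (2.93 to 3.39). CL1667.Contig3_All (3831 nt) had 11.1, 8.29, 50.1 and 114 FPKM, so its larger ratio, 6.04 (5.49 to 6.67), was the earlier one. CL1827.Contig5_All (4779 nt) had 3.26, 1.49, 7.32 and 17.7 FPKM, also with the larger ratio first, at 4.92 (3.99 to 6.12).

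The word "raised" fits most of the 50 sequences against mycelium too, but not all. In young fruit body, 41 of the 50 were at least 1 above mycelium on the log2(FPKM + 1) scale, where 17.6% of the 8268 sequences with sufficient FPKM were. In mature fruit body 42 of the 47 with at least 5 FPKM there were, against 18.1% of 8371. The rule ties mycelium to primordium, so these shares follow largely from the choice. In the other 9 sequences primordium lay below mycelium, at 0.431 to 0.794 of its level, with every counting interval under 1. The rule puts primordium below mycelium in any member less than 1 above mycelium in young fruit body, so the direction is not a finding. For these 9, young fruit body was only 1.07 to 2.25 times mycelium, so their profile was a low in primordium followed by a return to or above the mycelial level.

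The smallest of these ratios to mycelium was that of Unigene7332_All (653 nt), with 11.5, 5.29, 12.3 and 17.9 FPKM. Its young level was 1.07 times the mycelial level (0.824 to 1.39), which counting error does not separate. CL4139.Contig3_All (596 nt) had 6.26, 2.90, 6.86 and 11.5 FPKM, at 1.10 times mycelium (0.755 to 1.59). CL1828.Contig4_All (1982 nt) had 9.84, 5.23, 14.3 and 21.0 FPKM, at 1.45 times (1.25 to 1.69). The abundant Unigene6300_All and Unigene2463_All also belong here, at 1.82 (1.73 to 1.91) and 1.96 (1.91 to 2.01) times mycelium in young fruit body. CL6367.Contig1_All, CL6367.Contig2_All, Unigene7180_All and CL1827.Contig5_All, the others of the 9, were at 1.29, 1.58, 2.11 and 2.25 times mycelium. By maturity 4 of the 9 were at least 1 above mycelium on the log2(FPKM + 1) scale, and the ratios of mature fruit body to mycelium ran from 1.45 to 5.42.

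**Figure D3:**
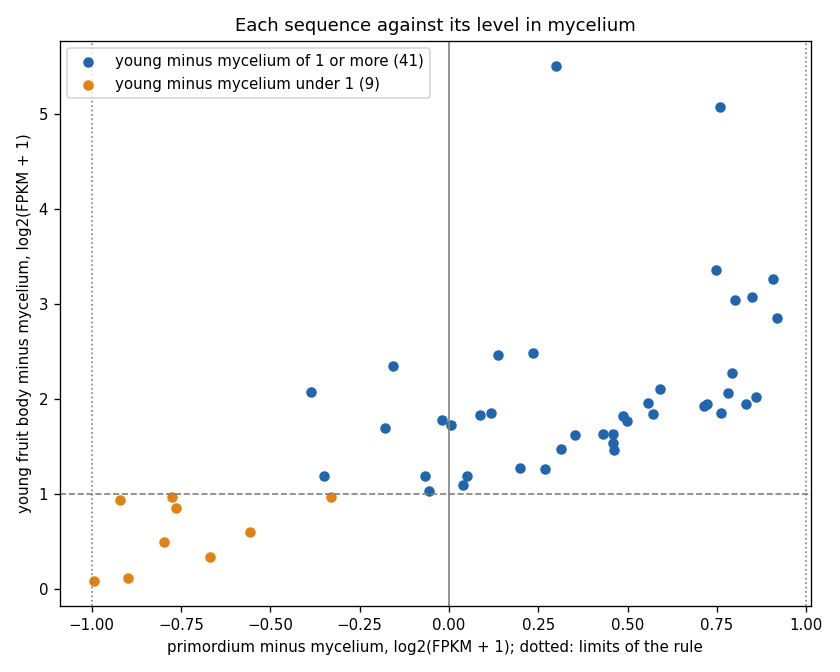
Difference of young fruit body from mycelium (vertical) against difference of primordium from mycelium (horizontal) for the 50 sequences, both on the log2(FPKM + 1) scale, with dotted lines at the limits of the rule. The 9 orange points below the dashed line at 1 all lie to the left of 0, where primordium was below mycelium. The rule requires this of any point below that line.

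At the low end of abundance the pseudocount hid a different departure. In 13 sequences primordium was at least 2 times mycelium by FPKM, although the difference on the log2(FPKM + 1) scale was under 1. All 13 had at most 1.31 FPKM in mycelium and at most 2.88 FPKM in primordium, and in 12 of them the interval of primordium over mycelium lay above 1. The exception was CL6317.Contig1_All, with 1 fragment in primordium and 0 in mycelium. CL2598.Contig4_All (2117 nt), chosen for mention from its values, had 0.0608, 0.910, 7.94 and 15.5 FPKM. Its mycelium value rests on 2 fragments and its primordium value on 29, a ratio of 15.0 (3.79 to 129.5). In 9 of the 12, the ratio of young fruit body to primordium exceeded that of primordium to mycelium. On the log2(FPKM + 1) scale the rule sets that order for all 50, so the count is not a finding. Over all 50, the interval of primordium over mycelium held 1 for 19 sequences, lay above 1 for 21 and below 1 for 10. No such count was made over all sequences. The lean toward primordium was not particular to the 50. Their median log2(FPKM + 1) difference was 0.28, against 0.25 over the 6492 sequences of at least 5 FPKM in young fruit body. All of the 19 whose interval held 1 were at least 1 above mycelium in young fruit body on the log2(FPKM + 1) scale. Because the rule puts young fruit body at least 1 above primordium, this too follows largely from the choice.

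Higher primordium levels within the limit also occurred at sufficient abundance. Among the sequences with at least 5 FPKM in mycelium, the largest differences of primordium over mycelium belonged to CL880.Contig7_All, Unigene7315_All, Unigene634_All, Unigene4786_All and CL6299.Contig2_All. CL6299.Contig2_All (1484 nt) had 11.5, 15.0, 37.7 and 42.2 FPKM. Its ratio of primordium over mycelium was 1.30 (1.10 to 1.53), and those of the other 4 ran up to 1.70 (1.29 to 2.24), in CL880.Contig7_All.

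Of the 50 sequences, 34 were contigs and 16 were unigenes, so contigs made up 68.0%, against 54.9% of the 6492 sequences of at least 5 FPKM in young fruit body. The contigs had a median of 8.12 FPKM in young fruit body and the unigenes 25.6 FPKM, with 12.03 and 49.6 FPKM for contigs and unigenes among the 6492. The recovered length had a median of 1176 nt and ran from 235 to 6265 nt, against a median of 1715 nt among the 6492. No test was made of these differences, and length bears on how many fragments stand behind a given FPKM.

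The 34 contigs came from 28 clusters of 2 to 12 contigs, and 5 clusters held 2 or more of them, 11 contigs in all. The table does not say whether contigs of 1 cluster belong to separate genes. Both contigs of CL6367 were in the group and had similar levels: CL6367.Contig1_All (381 nt) had 10.3, 6.10, 13.3 and 14.9 FPKM and CL6367.Contig2_All (2760 nt) had 7.95, 5.08, 12.5 and 14.5 FPKM. CL880 gave 3 members with nearly parallel profiles at different levels. CL880.Contig7_All (423 nt) had 13.2, 22.5, 53.9 and 53.6 FPKM. CL880.Contig2_All (2972 nt) had 1.21, 2.75, 7.01 and 6.65 FPKM, and CL880.Contig8_All (2330 nt) had 1.33, 2.28, 6.94 and 7.002 FPKM.

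Other contigs of these clusters showed how close or how far the rest of a cluster lay. CL880.Contig1_All (3006 nt), which is not among the 50, had 4.47, 7.49, 16.8 and 15.4 FPKM and missed the rule because mature fruit body was less than 1 above primordium on the log2(FPKM + 1) scale. In CL4619, CL4619.Contig2_All (380 nt) had 1.69, 1.92, 8.71 and 7.21 FPKM and CL4619.Contig4_All (405 nt) had 1.59, 2.63, 8.18 and 6.92 FPKM. The other contigs of that cluster were far more abundant and already higher in primordium: CL4619.Contig1_All had 23.7, 57.8, 105 and 89.5 FPKM and CL4619.Contig3_All had 16.7, 52.0, 150.1 and 128 FPKM. The members held 6.22% of the summed FPKM of CL4619 in young fruit body. In CL1526, CL1526.Contig3_All and CL1526.Contig4_All (923 nt, with 1.60, 2.23, 6.26 and 8.49 FPKM) stood beside CL1526.Contig2_All, at 0.389, 3.42, 61.2 and 73.9 FPKM.

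Over the 28 clusters, 16 contigs outside the group had at least 5 FPKM in young fruit body or primordium. Of these, 10 were at least 1 higher in young fruit body than in primordium on the log2(FPKM + 1) scale and 1 was at least 1 lower, against the 2.83% higher among all sequences compared. In 18 clusters no such other contig existed. The labels and the table do not state how a fragment that matches several contigs was assigned, and the part of this in the likeness was not tested. When FPKM was summed over each whole cluster, 22 of the 28 sums were at least 1 higher in young fruit body than in primordium, and 15 of the 28 met the whole rule. These sums include the contigs chosen for this rise, which held over 50% of the young fruit body sum in 19 of the 28 clusters, so the counts largely follow from the choice. Of the 13 that did not, 6 had a difference under 1 in young fruit body, 3 already exceeded mycelium by at least 1 in primordium, and 4 lay at least 1 below it there.

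**Figure D4:**
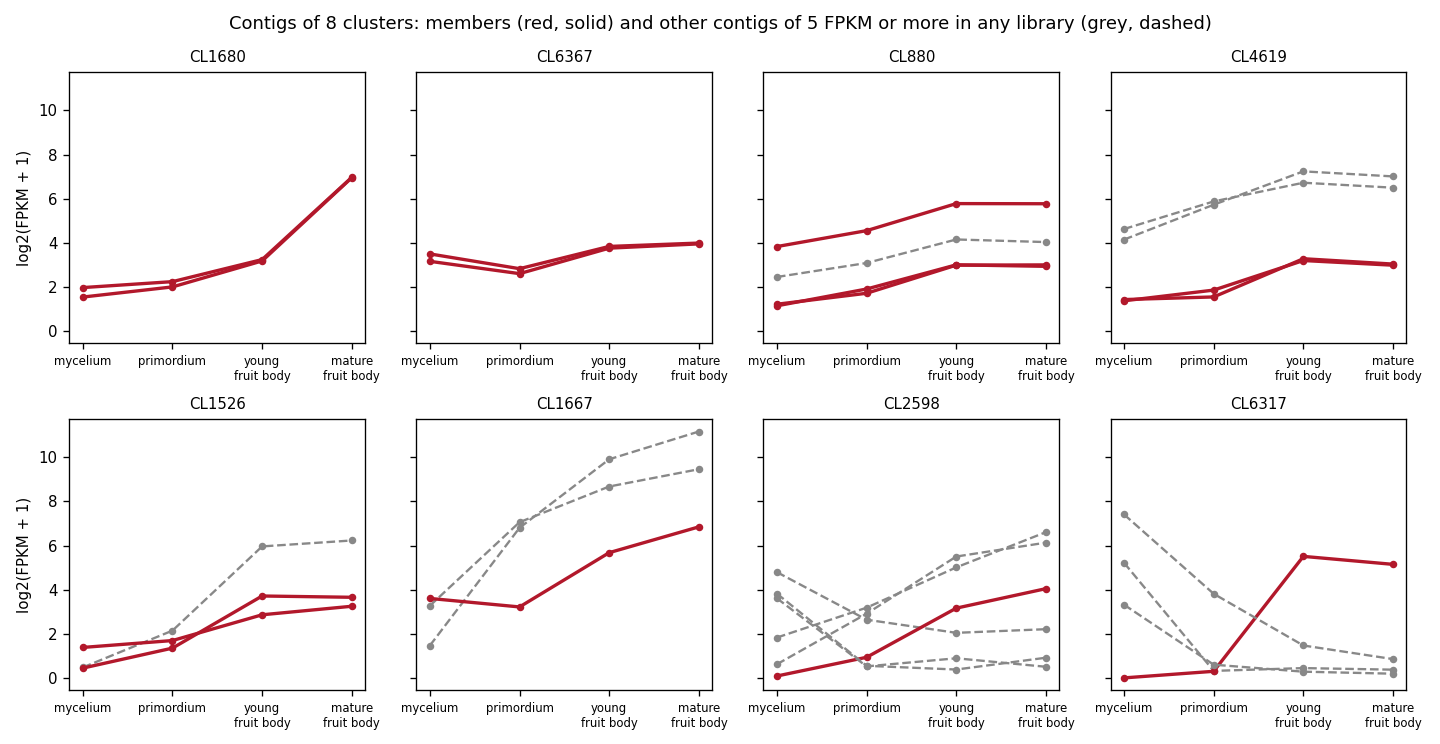
Level as log2(FPKM + 1) in the 4 libraries for the contigs of 8 clusters, with the sequences of the group in red and other contigs of at least 5 FPKM in any library in grey. The red lines nearly coincide in CL1680 and CL6367 and run parallel at different levels in CL880, whereas grey lines of CL1667 are higher from primordium on and those of CL6317 are high in mycelium.

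In 3 clusters, named after their values were seen, the cluster as a whole had another profile than its member. The member of CL1667 held 3.54% of the cluster's FPKM in young fruit body. CL1667.Contig1_All (585 nt) had 1.76, 111, 959.9 and 2297 FPKM, and CL1667.Contig2_All (3186 nt) had 8.64, 132, 407 and 702 FPKM. Both were thus already far higher in primordium, where CL1667.Contig3_All was at 8.29 FPKM. In CL6317 the steep CL6317.Contig1_All held 93.9% of the cluster's FPKM in young fruit body, but CL6317.Contig5_All (1029 nt) had 169, 13.0, 1.77 and 0.805 FPKM and CL6317.Contig10_All (1080 nt) had 36.2, 0.246, 0.361 and 0.295 FPKM. The cluster summed to 219, 14.7, 47.4 and 36.4 FPKM, with different contigs behind the mycelial and the fruit body levels. In CL834 the member CL834.Contig6_All had 4.99, 7.89, 20.6 and 27.7 FPKM, beside 1331, 39.8, 94.0 and 67.3 FPKM in CL834.Contig3_All.

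The group has no natural edge. CL1680.Contig1_All, CL6367.Contig1_All and CL4641.Contig3_All (1988 nt, at 1.52, 2.47, 5.98 and 7.02 FPKM) lay closest above the limit of 1, with log2(FPKM + 1) differences from primordium of 1.00, 1.01 and 1.01. Closest below it, with all other conditions met, were CL315.Contig4_All at 0.998, CL273.Contig1_All at 0.968 and CL1580.Contig3_All at 0.966. CL273.Contig1_All was as abundant as the larger members, with 38.3, 42.7, 84.4 and 113 FPKM. At the abundance limit, CL564.Contig9_All (5.05 FPKM in young fruit body), CL3076.Contig3_All (5.15) and Unigene7025_All (5.76) lay just inside, and Unigene1016_All (4.9985), CL4879.Contig1_All (4.86) and Unigene2881_All (4.80) just outside. Unigene2881_All reached 71.2 FPKM in mature fruit body, a higher level than most of the 50. The pseudocount also decided who was in the group: of the 50 sequences, 34 met the same rule with a pseudocount of 0.1 FPKM and 20 with one of 5 FPKM.

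The 17 sequences outside the rule for named ones had from 5.82 to 69.7 FPKM in young fruit body and from 4.33 to 124 FPKM in mature fruit body. Their ratios of young fruit body to primordium ran from 2.21 to 9.93. In primordium, 30 of the 50 sequences rested on fewer than 100 fragments, and the median was 72 fragments there against 224.5 in young fruit body. Depth was nearly even, with 15048631 to 15691317 fragments as the library totals behind FPKM. At 1000 nt, 1 fragment then equals 0.0637 to 0.0665 FPKM.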

How the data were processed

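The authors deposited 1 table of FPKM for 51131 sequences, with 1 column per stage, per the file headers, and columns were matched to libraries through the abbreviations in the sample descriptions. Per the labels, RNA was extracted with Trizol and sequenced on an Illumina HiSeq instrument. Neither the labels nor the table name an aligner, a counting tool or an assembly. Columns without a sample numbered 0.

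Whole fragments and lengths were recovered from the steps of the FPKM values: library totals from the most common ratios between columns and from the period in 6646 low sequences, then for each sequence the shortest length from 200 nt upward at which all 4 libraries had whole fragments. All 50567 sequences above 0 were solved, and fragments summed to 98.6% to 98.8% of the totals. The shortest solution understates fragments that share a common factor, which widens intervals. Recovery, rule and intervals were tested on simulated data.

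Intervals of ratios are exact binomial (Clopper-Pearson), from scipy 1.17.1 with Python 3.11.15. Values on the log2 scale carry a pseudocount of 1 FPKM, which understates differences of low sequences, so ratios are of FPKM. A background percentage counts sequences with a log2 difference of at least 1 and at least 5 FPKM in the higher library, out of those with 5 FPKM in either. The sequences, the rule and the lists were chosen with earlier results of these data known. Named sequences were, for sequences higher and for sequences level at maturity, the 5 most abundant in young fruit body and the 5 with the largest difference from primordium, then the 5 most abundant at maturity, the 5 largest and 5 smallest differences of primordium from mycelium at 5 FPKM or more in mycelium, the 3 nearest each limit, and clusters with several members.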

Additional observations from a re-analysis of the deposited data

How the results depend on the processing

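Of 11 alternatives, 5 kept all 6 results (the number of sequences, the numbers higher and lower at maturity, the number above mycelium in young fruit body, and the median differences from primordium to young and from young to mature fruit body). These were a pseudocount of 0.1, the counting interval above 1.5 and the 3 scalings, where counts stayed within 1.5 times and medians within the median half-width of the counting interval (0.41 and 0.24 on the log2 scale). The counting interval above 1.5 only filtered the 50 sequences and left 45, so its results were close to fixed in advance. With rises of at least 2 on the log2 scale, 8 sequences were left, 1 higher at maturity and 8 above mycelium, with a median rise of 2.48. Without a minimum there were 114, 15 and 75. With at least 20 FPKM there were 17, 3 and 15, with a median of 0.69 from young to mature fruit body. With primordium within 0.5 of mycelium, 26 were left, 25 above mycelium. A pseudocount of 5 gave 15 higher at maturity and a median of 0.70 in that step. With clusters summed, 37 units met the rule and 25 were above mycelium. The number lower at maturity was 0 under all 11. Each of them kept the limit over primordium at maturity, which leaves little room for such a fall, so the 0 follows largely from the rule. A similar number did not mean the same sequences: 34 of the 50 met the rule with a pseudocount of 0.1, 20 with one of 5, 43 with either median-of-ratios factors or the upper quartile, and 49 with equal sums. Upper-quartile scaling shifted the median difference of primordium from mycelium by 0.24 and equal sums by 0.16; the cause was not tested. The named sequences kept their direction from primordium to young fruit body in all 165 recalculations, which is no test, since they were chosen for it. No paired analysis was possible because there was a single library per stage. Depth limits the values before the young fruit body: the median sequence of the 50 rests on 52 fragments in mycelium and 72 in primordium.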

Other observations

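A further 16 sequences differed by less than 1 on the log2(FPKM + 1) scale from mycelium to primordium and were higher in young fruit body. They missed the limit of 1 over primordium at maturity. Their median at maturity lay between those of primordium and young fruit body. The limit itself put all 16 below their young level at maturity, so that part was fixed by the choice. Their medians were 4.63 FPKM in mycelium and 4.31 in primordium, then 10.2 in the young and 6.51 in the mature mushroom. At maturity 1 of the 16 ended below its primordium level. On the log2(FPKM + 1) scale, their median difference from primordium was 1.20 in young and 0.70 in mature fruit body, against 1.30 and 1.82 in the 50 sequences. The split at the limit over primordium sets the contrast at maturity. Of the 16, 7 were contigs.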
